A study of Mus musculus with 282 samples.

Results

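Single hematopoietic stem cells (HSCs) of mouse bone marrow in which Cd34 transcript was detected were compared with HSCs of the same sort in which it was not. The classes were chosen on 1 measured value, the Cd34 read count of each cell. A cell was Cd34-detected at 10 or more Cd34 counts per 1000000 gene counts (CPM) and Cd34-negative at 0 Cd34 reads. Of 282 cells, 232 passed the filter of 100000 gene counts and 1000 genes. Among those 232 cells, 117 were Cd34-detected, 105 were Cd34-negative and 10 lay between the classes and were left out. Because Cd34 chose the classes, its own level is given as a description with no test, and it was taken out of every other measure.

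CD34 is a sialomucin, a heavily glycosylated protein of the cell surface, carried by hematopoietic progenitors and by the endothelium of blood vessels. When its glycans are of the right form it can serve as a ligand of selectins, and inside the cell it binds adaptor proteins such as Crkl. In adult mice, long-term repopulating HSCs are known mostly from the fraction with little or no CD34 on the surface, whereas CD34-bearing cells of the same lineage-negative, Sca-1-positive, Kit-positive (LSK) compartment are rich in short-term HSCs and multipotent progenitors. The classes here rest on the transcript and not on the protein, which was not measured.

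All cells had been sorted as LSK, CD48 negative or low, CD150 positive, from mice homozygous for a doxycycline-controlled transactivator at Rosa26 (R26 rtTA/rtTA) and for a histone H2B-GFP transgene at Col1A1 (Col1A1 H2B-GFP/H2B-GFP). Both classes carried both alleles, no cell had been induced, and there was no other treatment, so the series holds 1 group of cells from 6 mice between 12 and 22 weeks old. The labels tie no cell to a mouse. They give a plate (1 or 2), a library series (29 or 32) and an HSC code, whose meaning they do not state. Series and code form 6 sets: codes HSC-3 and HSC-4 in series 29 (written L29) and codes HSC-2 to HSC-5 in series 32 (written L32). Every comparison was made within these sets and the 6 sets served as replicates. Codes HSC-3 and HSC-4 recur in both library series, and sets may share an animal, in which case the p-values are too small. P-values thus reflect how far the sets vary among themselves, and part of that variation may be technical. Kept cells had 116009 to 1680714 gene counts (median 280096) and a median of 5221.5 genes. Set L29 HSC-4 held the fewest genes, with medians of 4584 in its Cd34-detected and 4141 in its Cd34-negative cells, where the classes of the other sets had 4978 to 6076, and results that rest on it are given also without it.

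Cd34 (ENSMUSG00000016494, mm10 chromosome 1, 194938819 to 194961279, plus strand) was either absent or well above the threshold in most kept cells. In the 117 Cd34-detected cells it ranged from 10.24 to 2207 CPM with a median of 391 CPM, and rested on 2 to 1307 reads with a median of 108. The lowest members stood at 10.24, 13.33 and 19.4 CPM, and the highest cells left out stood at 8.837, 8.372 and 6.46 CPM. Few cells lay near the threshold, as the plot of Cd34 by cell shows. For a Cd34-negative cell of median depth, a count of 0 allows up to 10.6 CPM, and for the shallowest such cell up to 20.6 CPM, counting error only. Near-empty wells offer a background: 38 wells of 2 L32 sets, HSC-2 and HSC-3, failed the cell filter and had more spike-in than gene reads. They held 18 Cd34 reads, or 29.2 CPM, where the 66 kept cells from those sets had 304 CPM. That 29.2 CPM lies above the threshold of 10 CPM and above the 5 lowest Cd34-detected cells (10.24 to 25.62 CPM). A Cd34 read was present in 8 of these 38 wells, whose median was 8794 gene reads, so a CPM there is a share of few reads. A kept cell of L32 HSC-3 on plate 2 also had more spike-in reads (247919) than gene reads (116009). It counted as Cd34-detected on 7 reads (60.3 CPM).

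**Figure D1:**
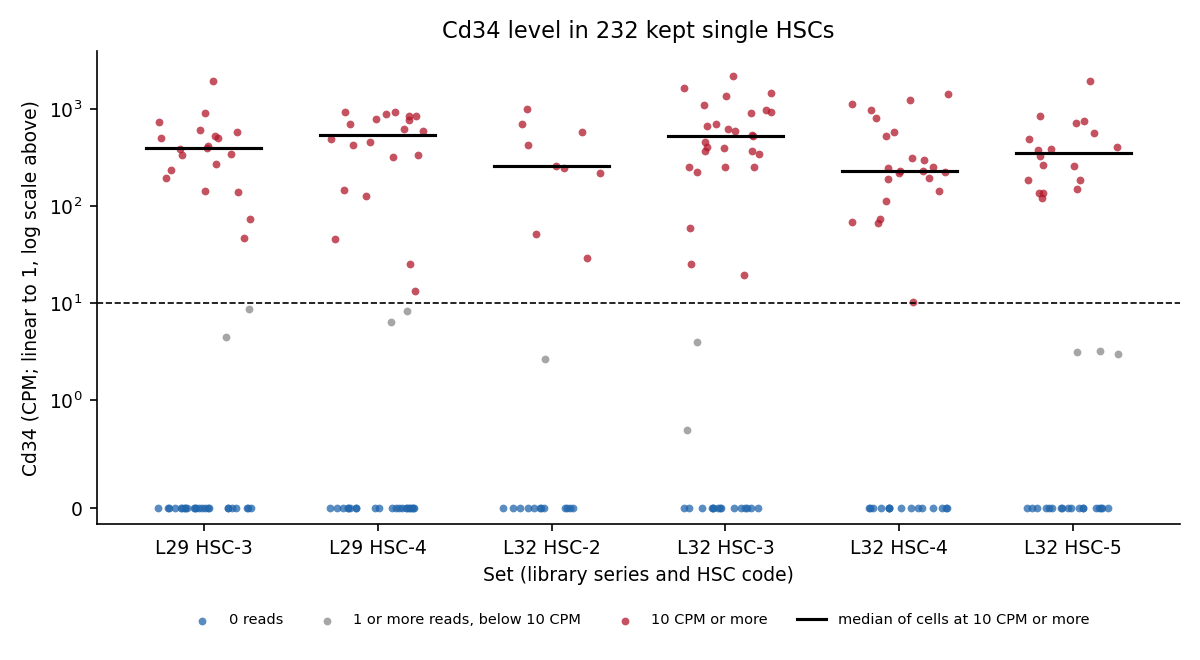
Cd34 level (CPM, linear up to 1 and logarithmic above) of each of the 232 kept cells by set. Red points are the 117 Cd34-detected cells, blue points the 105 Cd34-negative cells, grey points the 10 cells in between, the dashed line is the threshold of 10 CPM, and black bars are the medians of the Cd34-detected cells, from 232 to 541 CPM.

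The Cd34-detected share of kept cells was 50.4% (117 of 232, exact Clopper-Pearson 95% interval 43.8 to 57.0%). Over the 6 sets it averaged 49.8% ± 8.9 (SD, n = 6 sets), from 40.9% in L32 HSC-2 to 61.4% in L32 HSC-3. The set medians of Cd34 within the detected cells ran from 232 CPM in L32 HSC-4 to 541 CPM in L29 HSC-4. In the 3 sets with cells on both plates, plate 2 held the larger share: 75.0% on plate 2 and 50.0% on plate 1 in L32 HSC-3, 73.3% and 52.2% in L32 HSC-4, and 56.3% and 39.1% in the set L32 HSC-5. Plate was therefore a term of the set-by-set fit, whereas the sums per set joined both plates. The counts of genes and the main counts of cells were also made from plate 1 alone.

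Genes per cell and gene reads per spike-in read had higher medians in Cd34-detected cells, a difference that tests over 6 sets could hardly call. The median number of genes was higher in the Cd34-detected class in each of the 6 sets, by the largest step in L29 HSC-3 (6076 against 5212 genes) and the smallest in L32 HSC-4 (5429 against 5367 genes). With plate in the model the difference was 0.12 ± 0.10 on the log2 scale (SD, n = 6 sets) and positive in 5 of 6 sets. The exact two-sided sign-flip permutation test over sets gave p = 0.0625, and 0.125 after Benjamini-Hochberg adjustment over 4 measures. Before adjustment, 0.031 is the smallest p that 6 sets allow. Total gene counts did not run with it, with a difference of -0.04 ± 0.06 log2 and an adjusted p of 0.208 in the same exact test. When each cell was thinned to 100000 gene counts, the medians were 4544 genes in Cd34-detected and 4064 in Cd34-negative cells.

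Gene reads per spike-in read, which scale with cellular poly(A) RNA if every well received the same spike-in, had higher medians in the Cd34-detected class of every set, for instance 35.0 against 26.7 in L29 HSC-3 and 19.2 against 13.7 in L29 HSC-4. The plate-adjusted difference was 0.25 ± 0.20 log2 (SD, n = 6 sets), positive in 5 of 6 sets, with an adjusted p of 0.125 in the exact test. Neither measure passed the threshold of 0.05, which the adjusted test could hardly reach. With a cell filter of 3 median absolute deviations both were positive in 6 of 6 sets, and the adjusted exact p was still 0.0625. The test therefore cannot decide whether they differ. The mitochondrial share of gene reads differed by -0.202 ± 0.853 percentage points (SD, n = 6 sets, adjusted exact p = 0.63). It was lower in Cd34-detected cells of both L29 sets, at -0.844 and -1.65 points, and higher in all 4 L32 sets, by 0.208 to 0.446 points, and its mean turned to 0.0885 points without L29 HSC-4. The H2B-GFP transgene had a read in 9 of 117 Cd34-detected cells (33 reads) and 9 of 105 Cd34-negative cells (194 reads). Genes detected per cell was a covariate of the set-by-set fit. Its part in the shares of cells given further on, which carry no covariate, was not tested.

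**Figure D2:**
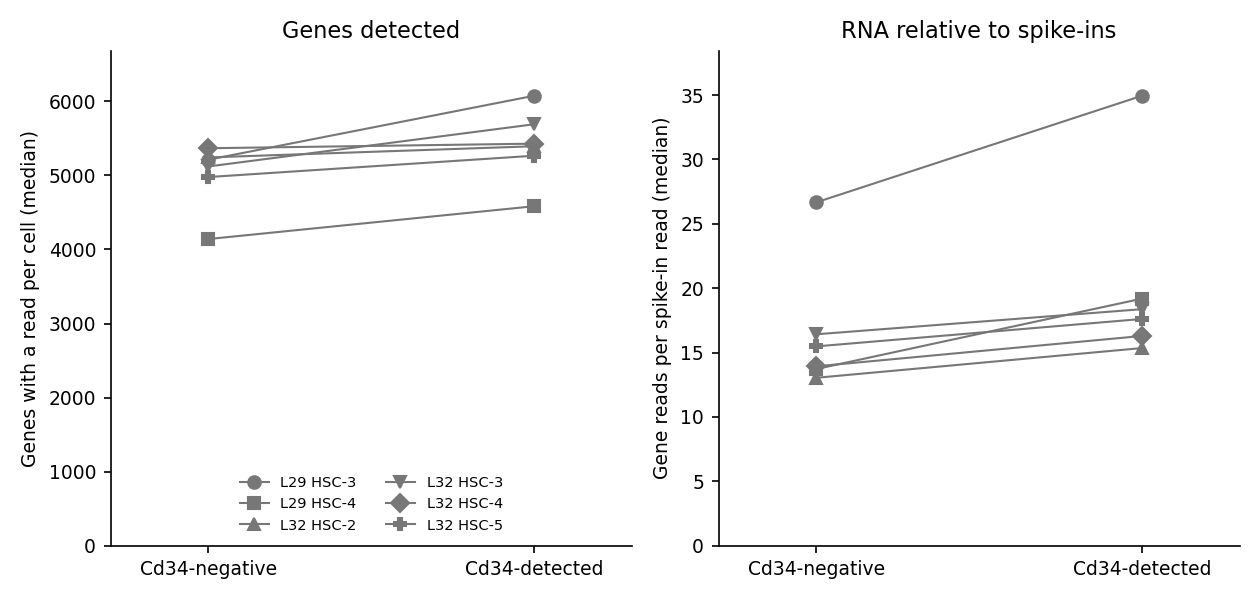
Median genes with a read per cell (left) and median gene reads per spike-in read (right) in Cd34-negative and Cd34-detected cells, with 1 symbol and line per set (n = 6 sets). Every line climbs from Cd34-negative to Cd34-detected, and L29 HSC-4 has the fewest genes in both classes (4141 and 4584).

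Both classes carried the genes of HSCs. At least 1 of 6 stem cell markers (Hlf, Mecom, Procr, Fgd5, Kit and Ly6a) stood at 10 CPM in 117 of 117 Cd34-detected and 104 of 105 Cd34-negative cells. Their summed level ran from 1399 to 1881 CPM over the sets in the Cd34-detected class and from 1613 to 2225 CPM in the Cd34-negative class. Kit, the receptor used in the sort, was at 10 CPM in 87.2% and 82.9% of cells, and the transcription factor Hlf in 75.2% and 75.2%. Markers of other cell types were followed in both classes. Endothelial markers, which could travel with Cd34, were present about as often in both classes, with at least 1 of 5 (Cdh5, Pecam1, Kdr, Emcn, Plvap) in 49.6% of Cd34-detected and 43.8% of Cd34-negative cells and set ranges of their summed level of 79.2 to 234 and 137 to 221 CPM. Platelet-lineage markers (Pf4 and Itga2b) were present in 34.2% and 32.4%, and stromal markers (Col1a1, Pdgfra and Lepr) in 3.42% and 1.9%. Of the 2 myeloid granule markers followed, Elane had 0 reads in both classes and Mpo was at 10 CPM in 3 and 1 cells. Other genes of the myeloid list were found in most cells of both classes. Averaged over sets, Prtn3 was at 10 CPM in 87.59% of Cd34-detected and 76.16% of Cd34-negative cells, and Lyz2 in 89.85% and 84.62%.

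No gene passed an adjusted p of 0.05 between the classes (limma on the 6 set differences, Benjamini-Hochberg over 9714 genes). Thus 0% of genes tested were called, and the smallest adjusted p was 0.357. The edgeR quasi-likelihood test on counts summed per set and class also called 0 genes, and DESeq2 on the same sums called 560. Of the 560, 441 had the same sign in the set-by-set fit, and 60 also had an unadjusted p under 0.05 there, 10.7% of the DESeq2 list and 7.62% of the 787 genes with such a p. In edgeR on the same sums, 360 of the 560 had the same sign and an unadjusted p under 0.05. Many DESeq2 values were extreme, with 259 of the 560 at an absolute log2 fold change above 5. The descriptions that follow therefore give values, the number of sets that share a sign and unadjusted counts beside their background, and no gene is stated to have changed.

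At an unadjusted p under 0.05, 590 genes were higher in Cd34-detected cells (6.07% of genes tested) and 197 were lower (2.03%). Of the 590, 55 reached the detection filter (10 CPM in 10% of compared cells) only through the Cd34-detected class, and of the 197, 10 only through the Cd34-negative class. None of the 24 leading genes described next did so (0 of 24). The median difference of all genes was 0.04 on the scale of log2(CPM/10 + 1), which understates the change of low genes, and 57.5% of genes were higher. This lean to higher genes was not shared by the summed counts, where edgeR had 322 higher and 366 lower at the same unadjusted p and a median of -0.03, and it grew to 1013 higher and 109 lower when genes detected was left out of the model.

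Tmem123, which encodes a cell surface glycoprotein (chromosome 9, 7764041 to 7794333), led the higher genes. Its mean level over the cells of a set had a minimum of 188, a median of 277 and a maximum of 376 CPM in the Cd34-detected class, against 174, 219 and 262 CPM in the Cd34-negative class. The levels overlapped, but the share of cells at 10 CPM was higher in 6 of 6 sets, 67.5% against 44.8% over all cells. The difference was 1.09 ± 0.25 (SD, n = 6 sets, limma adjusted p = 0.357) and kept its sign in 20 of 20 alternative settings. Nup210, a membrane protein of the nuclear pore (chromosome 6, 91013068 to 91116829), had the largest difference of the 12 leading higher genes, 1.15 ± 0.53. Its set means were 73.1 to 202 CPM in the Cd34-detected class and 25.2 to 106 CPM in the Cd34-negative class, and its sign was kept in 20 of 20 alternatives, with 0.09 as the lowest value. Utp3, a factor of the small ribosomal subunit processome (chromosome 5, 88554462 to 88556090), followed at 1.06 ± 0.42 and was at 10 CPM in 30.0 to 59.3% of Cd34-detected cells by set against 4.17 to 26.7% of Cd34-negative cells, with no overlap.

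The other leading higher genes were positive in 6 of 6 sets with an adjusted p of 0.469 each in limma. Sar1b, a GTPase of vesicle export from the endoplasmic reticulum, stood at 0.89, the stress granule protein gene Tia1 at 0.88, Mettl26 at 0.85 and Ube2g2, a ubiquitin-conjugating enzyme of protein quality control, at 0.82. Pebp1, an inhibitor of Raf kinase signaling, stood at 0.70, the microtubule-severing katanin subunit Katna1 at 0.69 and the septin gene Sept2 at 0.65. Pebp1 had 345 CPM in the near-empty wells (213 reads, in 6 of the 38 wells) and 151 CPM in the kept cells from those sets. A CPM in so shallow a well is a share of few reads, and the background within a kept cell was not measured. Nfic, a nuclear factor I gene, was at 0.88 in the set-by-set fit but negative in the 3 fits on summed counts (-0.28, -0.28 and -0.27). Cdk2, the kinase that acts at the entry to S phase (chromosome 10, 128697939 to 128705051), was at 0.62 ± 0.18, with 53 of 117 Cd34-detected and 29 of 105 Cd34-negative cells at 10 CPM.

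The largest negative difference among the leading lower genes was that of Coq8a, an atypical kinase of coenzyme Q synthesis (chromosome 1, 180165238 to 180199602). Its set means were 65.7, 125 and 318 CPM (lowest, median, highest) in Cd34-detected cells and 176, 380 and 565 CPM in Cd34-negative cells, lower in each of the 6 sets, and the difference was -1.26 ± 0.93 (adjusted p = 0.469). Pik3r1, the p85 regulatory subunit of PI 3-kinase, was at -1.17 ± 0.76. St8sia4, a sialyltransferase that builds polysialic acid (chromosome 1, 95587682 to 95667571), had a difference of -1.01 ± 0.49. It was at 10 CPM in 24 of 117 Cd34-detected cells and 39 of 105 Cd34-negative cells, with set shares of 10.0 to 29.6% and 26.7 to 41.7% that overlapped. Rbbp9, a serine hydrolase gene, stood at -0.91, Trim47 at -0.80, Ccdc6 at -0.80, Foxred2 at -0.74, the fatty acid elongation gene Hacd4 at -0.72, Nrgn at -0.67, Helz at -0.61 and the antigen-presenting molecule gene Mr1 at -0.55, each negative in 6 of 6 sets. DESeq2 put 6 of the 12 past its threshold, namely Coq8a, Ccdc6, Rbbp9, Foxred2, Nrgn and Hacd4, and neither limma nor edgeR put any of them there. Mr1 was higher in the near-empty wells (277 CPM, all from 1 well) than in the kept cells from those sets (46.4 CPM).

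Runx1, a transcription factor needed for definitive HSCs to arise in the embryo, was also among the 12 leading lower genes at -0.89 ± 0.54, negative in 6 of 6 sets. Its mean over the cells of a set was 92.3 to 193 CPM in the Cd34-detected class and 112 to 321 CPM in the Cd34-negative class. It turned positive in the fits on summed counts, at 0.81 and 0.22 in edgeR and 0.81 in DESeq2, so its direction depended on the method. Among the 24 leading genes, the 5 per direction with the largest differences were Nup210, Tmem123, Utp3, Sar1b and Nfic on the higher side and Coq8a, Pik3r1, St8sia4, Rbbp9 and Runx1 on the lower side.

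**Figure D3:**
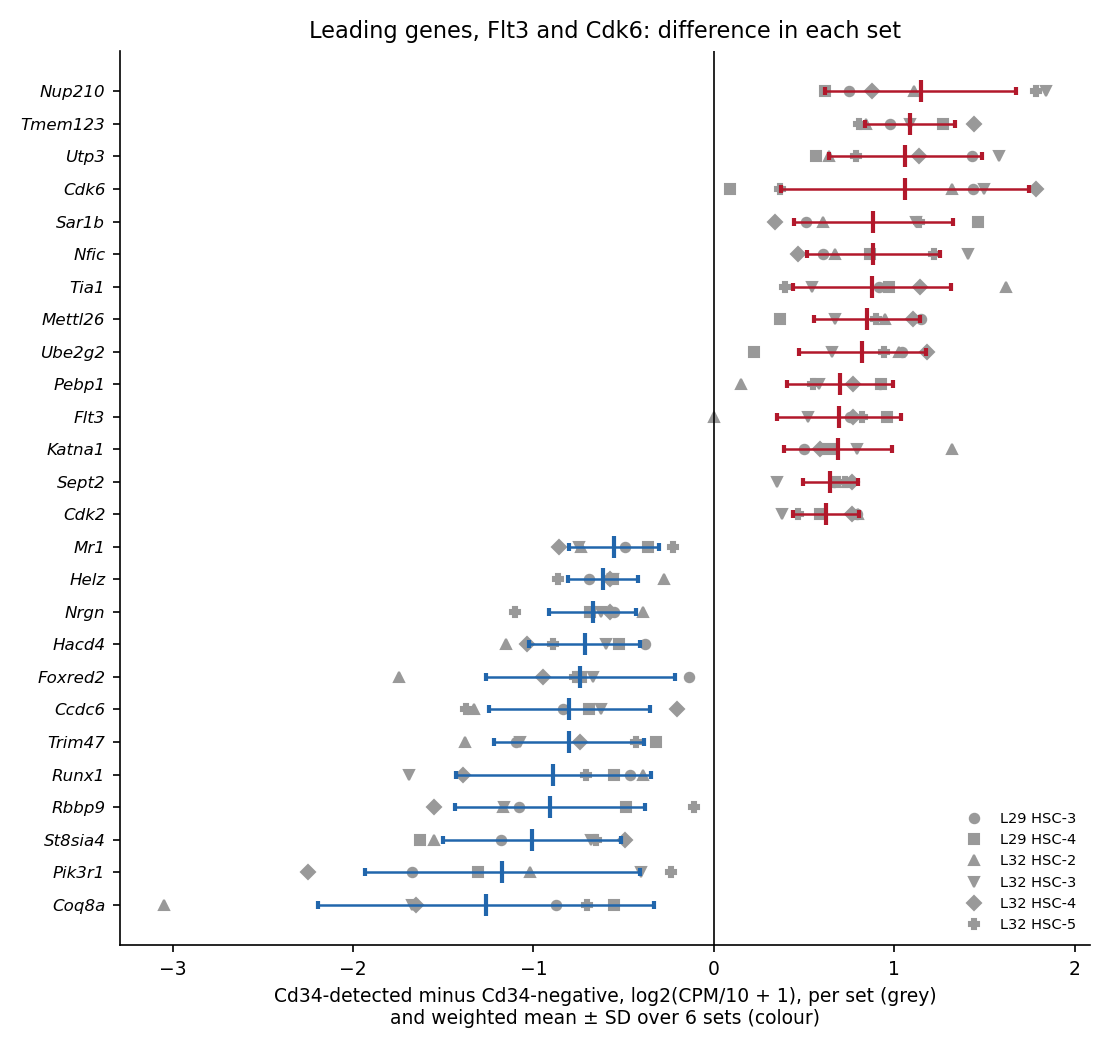
Difference between Cd34-detected and Cd34-negative cells on the log2(CPM/10 + 1) scale for the 12 leading genes per direction, Flt3 and Cdk6. Grey symbols are the 6 sets, coloured ticks the weighted mean and bars the SD over sets. All 24 leading genes lie on 1 side of 0 in every set by the rule that chose them, Flt3 lies at 0 in L32 HSC-2, and Coq8a spreads widest, down to -3.05 in L32 HSC-2.

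Progenitor genes were found in unequal numbers of cells. Flt3 (ENSMUSG00000042817, chromosome 5, 147330741 to 147400489), the receptor tyrosine kinase whose surface protein marks multipotent and lymphoid-primed progenitors, was at 10 CPM in 24 of 117 Cd34-detected cells (20.5%, exact 95% interval 13.6 to 29.0%) and in 2 of 105 Cd34-negative cells (1.9%, 0.232 to 6.71%). By set the Cd34-detected counts were 3 of 20, 7 of 20, 0 of 9, 6 of 27, 5 of 23 and 3 of 18, and the Cd34-negative counts 0 of 24, 1 of 21, 0 of 12, 1 of 15, 0 of 15 and 0 of 18, in the order of the L29 codes HSC-3 and HSC-4 and then the L32 codes HSC-2 to HSC-5. The share was thus higher in 5 of 6 sets, and L32 HSC-2 had no Flt3 read in either class. Its set mean level had a minimum of 0, a median of 56.0 and a maximum of 89.2 CPM in Cd34-detected and 0, 0 and 34.2 CPM in Cd34-negative cells. The difference was 0.70 ± 0.34 (SD, n = 6 sets). Flt3 reached the detection filter only through the Cd34-detected class, so this value is a description and no p is given. On plate 1 alone it was in 17 of 82 and 2 of 90 cells. At 100000 counts per cell it was present in 28 and 2 cells, and the near-empty wells held 0 Flt3 reads, where the kept cells from those sets had 32.9 CPM.

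Cd52 and Nkg7 were below the detection filter of the fit (10 CPM in 10% of compared cells) and are named because their shares were seen not to overlap. Cd52, a small surface glycoprotein of lymphocytes and some progenitors (chromosome 4, 134082448 to 134095082), was at 10 CPM in 12 of 117 Cd34-detected cells, at least 1 in every set (5.0 to 26.1%), and in 0 of 105 Cd34-negative cells. That 0 has an exact upper limit of 3.45%. Nkg7, a granule membrane protein of cytotoxic lymphocytes (chromosome 7, 43437073 to 43438249), was in 16 of 117 and 2 of 105 cells, with set shares of 8.7 to 22.2% against 0 to 4.76%. Cd3e, a T cell receptor subunit fixed as a T cell marker beside Nkg7, reached 10 CPM in 1 and 0 cells. At 100000 counts per cell Cd52 was present in 13 and 1 cells and Nkg7 in 16 and 2. On plate 1 alone the counts were 8 of 82 and 0 of 90 cells for Cd52 and 12 and 2 for Nkg7.

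Set shares that do not overlap were uncommon in the table as a whole. Of 16177 genes at 10 CPM in at least 1% of compared cells, 52 had shares in all Cd34-detected sets above all Cd34-negative sets (0.321%), and 1 had the opposite (0.00618%). Of 369 genes of the lists examined here, 5 had higher shares without overlap (Cd52, Nkg7, Uhrf1, Cox5a and Pgk1) and 0 had lower ones. For the set mean level, 33 genes (0.204%) were higher without overlap and 10 (0.0618%) lower, among them Cdk6, Tipin, Uhrf1, Cd52 and Nkg7 on the higher side and Mllt3 on the lower side.

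**Figure D4:**
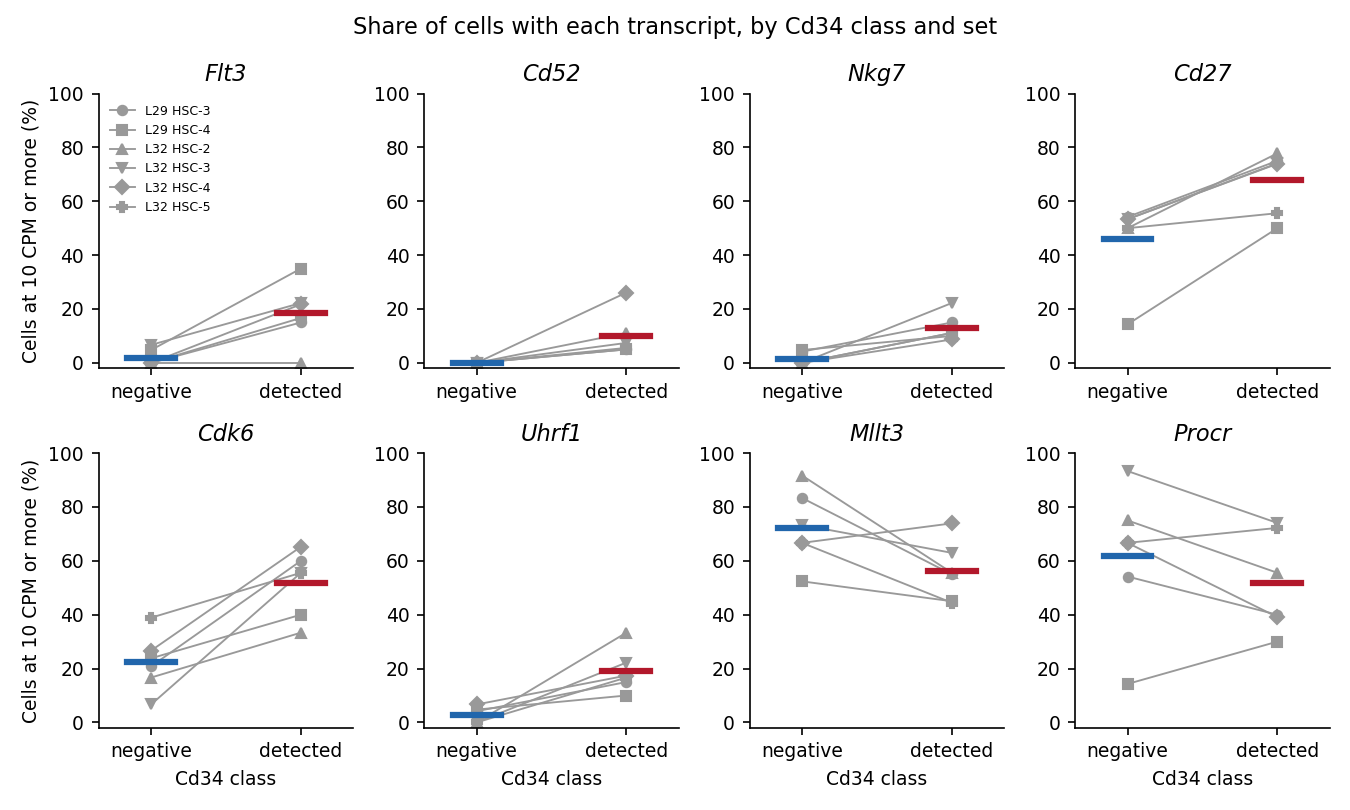
Share of cells at 10 CPM or more (%) for 8 genes in Cd34-negative and Cd34-detected cells. Each grey symbol and line is 1 set (n = 6 sets) and the coloured bar is the mean over sets. Cd52 is at 0 in every Cd34-negative set, Flt3 goes up in all sets but L32 HSC-2, and Procr goes down in 4 sets and up in L29 HSC-4 and L32 HSC-5.

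Among the other multipotent and lymphoid progenitor genes, Cd27, a costimulatory receptor of the TNF receptor family, was at 10 CPM in 79 of 117 Cd34-detected and 47 of 105 Cd34-negative cells, with a higher share in 6 of 6 sets and a difference of 0.80 ± 0.84 (adjusted p = 0.543). Plac8 stood at 0.41 ± 0.45, positive in 4 sets, negative in 1 and 0 in L32 HSC-5. Averaged over sets it was at 10 CPM in 18.67% of Cd34-detected and 6.96% of Cd34-negative cells. Since it reached the filter only through the Cd34-detected class, its difference is a description. The other tested members differed less: Emb stood at 0.25 ± 0.74, Mef2c at 0.18 ± 1.03 and Notch1 at 0.15 ± 0.38. Hmga2 at -0.08 ± 0.70 and Ikzf1 at -0.06 ± 0.89 were negative. Mef2c and Hmga2 had 3 sets on each side of 0, and Ikzf1 was negative in 4 of 6. Cd48, the marker that the sort kept low, was at 10 CPM in 2 and 0 cells. Of 18 progenitor genes 8 were tested, and 3 of these (Flt3, Plac8 and Notch1) reached the filter only through the Cd34-detected class, so no list median is given. Cd27, which reached it in both classes, had an unadjusted p under 0.05 and did not reach that p without L29 HSC-4.

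Mast cells also carry CD34, and their markers were followed for that reason. Cpa3, the mast cell carboxypeptidase (chromosome 3, 20215620 to 20242181), was at 10 CPM in 7 of 117 Cd34-detected cells from 4 of the 6 sets and in 0 of 105 Cd34-negative cells. Fcer1a, the alpha chain of the high-affinity IgE receptor, had 0 reads in Cd34-negative cells. The summed level of the 3 mast cell markers was 0.343 to 42.5 CPM over the Cd34-detected sets and 0 to 1.96 CPM over the Cd34-negative sets. At 100000 counts per cell Cpa3 was present in 8 and 2 cells. Whether these few cells set any other difference was not tested.

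Genes that drive cells from G0 through G1 were higher in value. Cdk6 (ENSMUSG00000040274, chromosome 5, 3341485 to 3531008), the kinase whose level is known to set how fast HSCs leave quiescence, was at 10 CPM in 63 of 117 Cd34-detected and 24 of 105 Cd34-negative cells. Its set means were 81.6, 99.6 and 253 CPM (lowest, median, highest) in the Cd34-detected class and 2.62, 56.7 and 72.9 CPM in the Cd34-negative class, with no overlap. The difference was 1.06 ± 0.69, positive in 6 of 6 sets (adjusted p = 0.469), and the smallest of the 20 alternatives was 0.32. At 100000 counts per cell it was present in 66 and 30 cells, and on plate 1 alone it was at 10 CPM in 44 of 82 and 20 of 90. The near-empty wells held 18 Cdk6 reads in 5 of the 38 wells, or 29.2 CPM, where the kept cells from those sets had 48.1 CPM. The first value is a share of few reads, and the background within a kept cell was not measured. Of 12 G1 entry genes 8 were tested, 7 were positive (median 0.16), and Cdk6 and Cdk2 had an unadjusted p under 0.05 (25.0% of the list, where 6.07% of all genes were higher at that p). The number at that p was 1 in both edgeR fits (322 and 183 of all genes higher), and 1 of the 8 reached the filter only through the Cd34-detected class. Of the D-type cyclins that pair with Cdk6, Ccnd2 stood at -0.14 ± 0.15 and Ccnd3 at 0.04 ± 0.39, and both were of the other sign in at least 3 alternatives.

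Among S phase genes, 26 of 31 were tested, and 6 of the 26 reached the filter only through the Cd34-detected class, so no list median is given. Uhrf1, which recruits the maintenance DNA methyltransferase to replicated DNA, was at 10 CPM in 21 of 117 Cd34-detected and 3 of 105 Cd34-negative cells, and is 1 of those 6, so its difference of 0.45 ± 0.49 is a description. Tipin, a subunit that protects the replication fork, had set means of 108 to 175 CPM against 0.22 to 101 CPM and a difference of 1.02 ± 1.07. The helicase subunit gene Mcm2 stood at 0.53 ± 0.64. Tipin and Mcm2 had an unadjusted p under 0.05, as did 6.07% of all genes on the higher side. Uhrf1 had such a p too, which is no support, since it passed the filter through the class where it is high. With Uhrf1 the list had 3 such members. That number was 1 without L32 HSC-2 (531 of all genes higher) and 1 when cells were thinned to 100000 counts (431 of all genes). It was 1 and 0 in edgeR on sums per set and per set and plate (322 and 183 of all genes). In DESeq2 it was 7 (824 of all genes), and without genes detected as a covariate 10 (1013 of all genes). At least 5 S phase genes were at 10 CPM in 85 of 117 Cd34-detected and 57 of 105 Cd34-negative cells, and at 100000 counts per cell in 91 and 67. The number of S phase genes in a cell also grows with the genes it holds, whose class medians are given above, and the part of that in these counts was not tested.

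Mitotic genes were rare in both classes. At least 5 of 30 G2 and M phase genes were at 10 CPM in 8 of 117 Cd34-detected cells (6.84%, exact 95% interval 3.00 to 13.0%) and 4 of 105 Cd34-negative cells (3.81%, 1.05 to 9.47%), intervals that overlap. At 100000 counts per cell the numbers were 13 and 7 cells. Mki67, the proliferation marker, was at 10 CPM in 9 and 4 cells. Of 18 quiescence genes 12 were tested, 5 positive and 7 negative (median -0.04, with the other sign in 7 alternatives), and 0 had an unadjusted p under 0.05. Leaving out the 12 cells with at least 5 G2 and M phase genes kept the number of called genes at 0 and left 532 higher and 212 lower genes at an unadjusted p under 0.05.

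Growth and energy genes were mostly higher in value, beside a background of 57.5% positive genes and 6.07% higher at an unadjusted p under 0.05. Of 24 nucleolus and growth genes, all tested, 19 were positive (79.2%, median 0.24) and 5 had such a p (20.8%), all higher: Nolc1 at 0.74, the stem cell nucleolar gene Gnl3 at 0.73, Nhp2 at 0.63, the spermidine synthase gene Srm at 0.53 and nucleolin (Ncl) at 0.50. That count was 1 without L29 HSC-3, 2 without L32 HSC-4, 3 without L32 HSC-5 and 8 without L29 HSC-4. Ncl turned negative in the fits on summed counts, at the lowest -0.27. Of 22 genes of oxidative phosphorylation 17 were positive (77.3%, median 0.20), with 5 (22.7%) at an unadjusted p under 0.05: the adenine nucleotide carrier Slc25a5 at 0.77, Uqcrq at 0.74, Ndufv1 at 0.72, Cox6c at 0.56 and the ATP synthase subunit Atp5b at 0.37, the last positive in 6 of 6 sets. The count was 2 without L29 HSC-4 or without L32 HSC-5 and 3 without L32 HSC-2. Of 16 glycolysis genes 12 were positive (75.0%, median 0.23) and 4 (25.0%) had an unadjusted p under 0.05, namely the hexokinase Hk1 at 0.77, Pfkl at 0.74, Tpi1 at 0.68 and Pgk1 at 0.45. It was 1 without L29 HSC-4 and 2 without L32 HSC-3 or L32 HSC-5. Pfkl and Pgk1 turned negative in fits on summed counts. In the 3 fits on summed counts, oxidative phosphorylation had 0 higher members at that p. It had 1 lower member in edgeR on sums per set and plate, where 210 of all genes were lower. Glycolysis had 1 higher and 1 lower member in each of the 3 fits, and growth had 2 and 1 higher in edgeR and 3 in DESeq2. Of all 9714 genes, 322 and 183 in edgeR and 824 in DESeq2 were higher at that p. With cells thinned to 100000 counts the numbers were 1 for growth, 3 for oxidative phosphorylation and 2 for glycolysis, where 431 of all 11090 genes were higher. The medians of all 3 lists stayed positive in 20 of 20 alternative settings, down to 0.02 for oxidative phosphorylation. With plate 1 alone, the members at an unadjusted p under 0.05 numbered 2 for growth, 6 for oxidative phosphorylation, 3 for glycolysis and 1 for S phase.

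**Figure D5:**
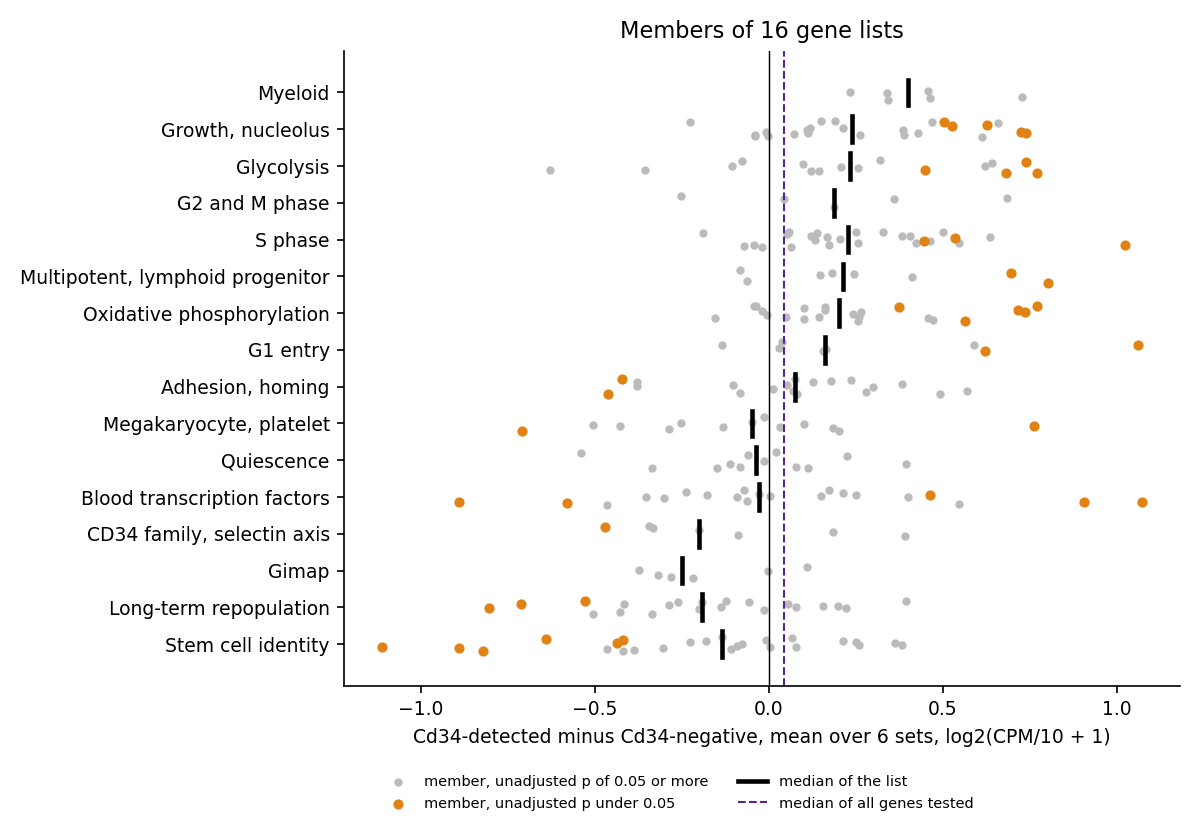
Differences of the tested members of 16 gene lists on the log2(CPM/10 + 1) scale, mean over 6 sets. Orange points have an unadjusted p under 0.05, grey points do not, black ticks are list medians and the dashed line is the median of all 9714 genes (0.04). Some points, among them Flt3 and Uhrf1, stand for genes that reached the filter only through the Cd34-detected class. Such genes make up 3 of 8 progenitor, 6 of 26 S phase and 2 of 5 G2 and M phase members, so those ticks are descriptions only. The stem cell identity and long-term repopulation lists have their orange points on the negative side. The growth, glycolysis, oxidative phosphorylation and S phase lists have theirs on the positive side, with Uhrf1 among those of S phase.

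Stem cell identity genes leaned the other way. Of 26, 25 were tested, 17 had negative values and the median was -0.13, negative in 20 of 20 alternative settings. An unadjusted p under 0.05 was reached by 6 (24.0% of the list, where 2.03% of all genes were lower at that p), all lower, and by 0 in the higher direction. In edgeR the number was 3 on sums per set (366 of all genes lower) and 2 on sums per set and plate (210 of all genes). In DESeq2 it was 3, where 905 of all 9714 genes were lower at that p. Mllt3 (ENSMUSG00000028496, chromosome 4, 87769925 to 88033364), a chromatin reader known to sustain HSC self-renewal, had set means of 121, 237 and 270 CPM (lowest, median, highest) in Cd34-detected and 297, 414 and 680 CPM in Cd34-negative cells, which did not overlap. Its difference was -1.11 ± 0.97, negative in 5 of 6 sets (adjusted p = 0.519). Procr (ENSMUSG00000027611, chromosome 2, 155751117 to 155755471), which encodes the HSC surface marker EPCR, was at -0.82 ± 0.76 (adjusted p = 0.543), with set means of 58.7 to 231 CPM against 133 to 462 CPM and lower levels in 6 of 6 sets, while the fitted difference was negative in 5 of 6. The share of cells with Procr differed less, at 61 of 117 and 61 of 105.

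Ctnnal1, a catenin-like gene used to mark HSCs, stood at -0.44 with 6 of 6 sets negative. Runx1, described above, also belongs to these members. It was positive in the fits on summed counts, whereas Mllt3, Procr and Ctnnal1 kept their sign in 20 of 20 alternative settings. Other identity genes lay near 0 or above it: Ly6a, which encodes Sca-1, stood at 0.36 ± 0.83, Gata2 at 0.25 ± 0.39, Meis1 at 0.21 ± 0.49, Hlf at -0.01 ± 0.61 and Kit at -0.11 ± 0.88, each with the other sign in at least 1 alternative. Slamf1, which encodes CD150 used in the sort, reached 10 CPM in 20 and 23 cells (-0.42 ± 0.58).

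Long-term repopulation genes had a median of -0.19 over 21 tested of 25, with 15 negative and the sign kept in 20 of 20 settings. The 3 with an unadjusted p under 0.05 (14.3% of the list, where 2.03% of all genes were lower at that p) were all lower. They were Sult1a1 at -0.81, endoglin (Eng) at -0.71 and Pdzk1ip1 at -0.53, the last negative in 6 of 6 sets. That count was 1 without L32 HSC-2 and 1 with plate 1 alone, where the identity list had 3 of its 6. Vwf, the clotting factor gene that marks platelet-biased HSCs, was at 10 CPM in 28 of 117 and 33 of 105 cells (-0.50 ± 0.63) and changed sign in the fits on summed counts. Txnip, an inhibitor of glucose uptake, was at 1127 to 2124 CPM by set against 1616 to 2734 CPM, lower in 6 of 6 sets by mean level, with a difference of -0.33 ± 0.30 that was positive (0.03) in edgeR on sums per set and plate. The 8 Gimap genes, GTPases of lymphocyte survival, gave a median of -0.25 over 6 tested, with 0 at an unadjusted p under 0.05.

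Blood transcription factors went in both directions. Of 21 tested, 10 were positive and 11 negative (median -0.03, with the other sign in 8 alternatives). Myb, needed for progenitor expansion, stood at 1.07 ± 1.03, Cbfa2t3 at 0.91 ± 0.80 and Sox4 at 0.46 ± 0.40 on the higher side, and Runx1 at -0.89 and the immediate early gene Egr1 at -0.58 on the lower side. Each of these 5 changed sign in at least 2 of the fits on summed counts. Egr1 was positive in 3 sets and negative in 3. Myb had 733 CPM in the near-empty wells and 241 CPM in the kept cells from those sets. All 6 tested myeloid genes were positive (median 0.40) with 0 at an unadjusted p under 0.05, and their median was negative in fits on summed counts, at the lowest -0.06. Among them Prtn3 stood at 0.73 ± 1.54, with 3.78 in L29 HSC-4, and was negative in the 3 fits on summed counts. Megakaryocyte genes gave a median of -0.05 over 13 tested, with Fermt3 at 0.76 and Clu at -0.71 having an unadjusted p under 0.05. Each is 7.69% of the list, where 6.07% of all genes were higher and 2.03% lower at that p.

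Relatives and partners of CD34 were a further list. Podxl, which encodes podocalyxin of the CD34 family, was under the filter of the fit and at 10 CPM in 15 of 117 Cd34-detected and 5 of 105 Cd34-negative cells. Of 12 genes of the family and the selectin axis 7 were tested, 2 positive and 5 negative, with a median of -0.20 that turned positive in 4 alternatives. St3gal4, a sialyltransferase of selectin ligands, stood at -0.47 ± 0.46 and was the 1 member with an unadjusted p under 0.05. That is 14.3% of the list, where 2.03% of all genes were lower at that p. Selplg, which encodes the selectin ligand PSGL-1, was at 0.39 ± 0.71, the P-selectin gene Selp at 0.18 ± 0.36 and the adaptor Crkl at -0.20 ± 0.50. Of 26 genes within 500000 bp of Cd34, 1 passed the filter, the complement regulator gene Cr1l, at 0.39 ± 0.88 with 3 sets on each side of 0. Of 22 adhesion and homing genes 19 were tested (median 0.07, negative in the 3 fits on summed counts). Itga5 at -0.46 and F11r at -0.42 had an unadjusted p under 0.05 (10.5% of the list, where 2.03% of all genes were lower at that p).

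Lists for other programs gave at most 1 member at that p in each direction. Lysosome and autophagy genes had a median of -0.04 over 17 tested (Gabarapl2 at -0.38), MHC genes -0.02 over 11 and endothelial genes 0.02 over 4. Immediate early genes had -0.16 over 10 (Egr1), but 0.62 to 0.70 in the 3 fits on summed counts. Interferon genes had -0.10 over 14 (Zbp1 at 0.42 and Iigp1 at -0.50), and -0.66 to -0.70 on summed counts. Erythroid genes had 0.10 over 5 and G2 and M phase genes 0.19 over 5, but 3.51 to 3.84 and 0.91 to 1.81 on summed counts, and 2 of the 5 tested in each reached the filter only through the Cd34-detected class. The B cell and stromal lists had 1 tested gene each, at 0.26 and 0.35, and the T and NK cell and mast cell lists had 0. Of the 42 list genes with an unadjusted p under 0.05 in either direction, 30 kept their sign in every alternative setting that gave a value. Flt3, Uhrf1 and Zbp1 among them had reached the filter only through the Cd34-detected class.

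Within the Cd34-detected class, the level of Cd34 was set beside the other genes as a description. Cells were divided in each set at the set's median into 60 with lower and 57 with higher Cd34, with medians of 221 and 699 CPM. Flt3 was at 10 CPM in 18.3% of the lower and 22.8% of the higher cells, Cd27 in 66.7 and 68.4%, Cdk6 in 56.7 and 50.9%, and Procr in 55.0 and 49.1%. Between the lower and higher cells the shares of these 4 genes lay within 6 percentage points of each other. Tmem123, in 66.7 and 68.4%, and Utp3, in 45.0 and 47.4%, also differed little. Other genes differed more: Myb was in 70.0 and 84.2%, Nup210 in 48.3 and 61.4%, Cdk2 in 40.0 and 50.9% and Mllt3 in 61.7 and 52.6%. Runx1 and Vwf were at 56.7 and 30.0% in the lower against 40.4 and 17.5% in the higher cells. The median number of genes went the other way, 5660 in the lower and 5258 in the higher cells. Of the 24 cells of the class with Flt3, 14 (58.3%) had Cdk6, 16 (66.7%) Cd27, 11 (45.8%) Procr and 13 (54.2%) Mllt3, against 52.7, 67.7, 53.8 and 58.1% of the 93 cells without Flt3. Nkg7 was in 5 of the 24 cells (20.8%), against 11.8% of the 93.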

How the data were processed

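Poly(A) RNA of 282 single sorted HSCs was reverse-transcribed with template switching and amplified with PCR, without molecular identifiers, per the labels' protocols. The values are raw read counts in a single matrix that the authors deposited. GSNAP, featureCounts 1.6.2 and the build mm10 are named in the submitters' processing notes. The handling of strand and of multi-mapped reads is unstated in the labels and headers, so near-identical, overlapping and antisense genes are uncertain. Of 49764 rows, 49671 were Ensembl genes (49326 with a symbol), 92 were ERCC spike-ins and 1 was the transgene. The last 2 kinds stayed out of totals and tests.

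CPM and log2(CPM/10 + 1) were computed from the deposited counts. Sets with at least 5 cells per class entered, which all 6 did. In each set a linear model of every gene at 10 CPM in at least 10% of compared cells gave the class difference with plate and log2 genes detected as covariates. The 6 differences, weighted by cells per class, were tested against 0 in limma 3.58.1 (R 4.3.3) with Benjamini-Hochberg adjustment at 0.05. A mean level of a class is the mean over cells within a set. Alternatives were edgeR 4.0.16 and DESeq2 1.42.0 on summed counts, other covariates, pseudocount, filters, weights, class thresholds, thinning to 100000 counts, no cells with 5 G2/M genes, plate 1 only (chosen after seeing the data) and each set left out. Intervals are exact 95% Clopper-Pearson intervals (scipy 1.17.1) for counting error only. Each well received 1 sorted cell, so no doublet caller was run, and no pair of cells had identical counts.

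The members and the gene lists were chosen with earlier results of these data known. Genes were named from a rule: per direction the 12 smallest p among genes with 1 sign in every set, all tested identity, progenitor and CD34 family genes, the 3 most abundant members of every other list, neighbours within 500000 bp of Cd34, and Procr, Vwf, Flt3, Slamf1, Cdk6 and Mki67. Some genes that the rule or the lists hold are not reported here. Other list members with an unadjusted p under 0.05, Cd52, Nkg7, Cpa3, Podxl, Cox5a and the remaining markers were named after their values were seen. No sequence is printed, since no sequence bears on a difference between these classes.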

Additional observations from a re-analysis of the deposited data

Results flagged for a closer look

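Among 30 values examined over the 6 sets (the 24 leading genes, Flt3, 4 per-cell measures and the share of Cd34-detected cells), 2 had 1 set far from the other 5, where chance alone gives about 1 in 20. Sept2 stood at 0.35 in L32 HSC-3, below the other 5 sets at 0.67 to 0.77. Katna1 stood at 1.32 in L32 HSC-2, above the other sets at 0.50 to 0.80, and that set has the fewest Cd34-detected cells (9). The mitochondrial share was lower in Cd34-detected cells of both L29 sets and higher in those of all 4 L32 sets, a gap of -1.57 percentage points between the means of the library series, and this difference was not tested.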

How the results depend on the processing

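The number of called genes was 0 in the set-by-set fit and 0 in 19 of 20 alternative settings, each set left out included (0 to 0), with smallest adjusted p from 0.21 to 1. DESeq2 on summed counts called 560 genes, left 377 adjusted p undefined, and the cause was not tested. The mean mitochondrial difference ran from -0.331 to 0.0885 percentage points as each set was left out, reversed at 0.0885 without L29 HSC-4. The share of Cd34-detected cells was 51.2 to 54.7% in the 3 alternatives run for it, and a threshold of 50 CPM left 109 such cells. Genes detected (0.0958 to 0.153 log2), total counts and gene reads per spike-in read (0.196 to 0.304 log2) kept their sign in all alternatives run. Of the 24 leading genes and Flt3, 23 kept their sign in every setting that gave a value. Nfic reversed at -0.278, -0.277 and -0.273 and Runx1 at 0.809, 0.221 and 0.814 in edgeR on sums per set, edgeR on sums per set and plate, and DESeq2, and the cause was not tested. Among other named genes, 1822 values moved by less than 1 SD over sets and 115 by more. The fit is already paired by set, since it tests the 6 within-set differences, and no other pairing of the classes is given by the labels. Depth limits the classes: a Cd34-negative cell may hold Cd34 below 10.6 to 20.6 CPM.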
